A study of Ailuropoda melanoleuca with 25 samples.

Results

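The lung of the giant panda was compared with the heart, liver, spleen and kidney of the same animals. The comparison used the 5 lung libraries of the 25 mRNA sequencing libraries in the series, chosen by their tissue label, and set them against the 20 libraries of the 4 other tissues, 5 per tissue. Each tissue was sampled once from each of 5 pandas after death and stored in liquid nitrogen. By the labels, panda 1 was a female of age 27 with ovarian cancer, panda 2 a female of age 9 with the cause of death written as "ileac pssion", and pandas 3, 4 and 5 were of age 0.5 and died of coronavirus infection, the first pair female and the third male. The labels give no unit for age. The labels name no experimental treatment and no healthy control, and the 5 tissues share every disease of their donor. Within the lung, the age of the pandas, what they died of and when they died cannot be told apart. The 5 libraries of a tissue are 5 animals, so errors and p-values cover the spread between animals.

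The lung exchanges gas across the alveolus, whose surface is covered mostly by flat type 1 cells and is kept open by surfactant, a mixture of lipid and proteins secreted by cuboidal type 2 cells. Conducting airways are lined by ciliated cells, which move mucus, and by club and other secretory cells. The capillary bed of the lung also removes amines from the blood and carries angiotensin-converting enzyme, and the developing lung is patterned by the transcription factor NKX2-1 and by FGF10 signalling to the epithelium through FGFR2.

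The deposited values were FPKM, fragment counts divided by gene length and by sequencing depth. Each library was divided here by a size factor, the median ratio of its genes to their geometric mean over the 25 libraries, and all levels below are scaled FPKM. A gene was called when the limma test gave a Benjamini-Hochberg adjusted p under 0.05 and a difference in mean log2(scaled FPKM + 1) beyond 2 in either direction. Against the heart, 1027 of 15794 tested genes (6.5%) were higher in lung and 1230 (7.79%) were lower. Against the liver, 1003 of 15998 (6.27%) were higher and 1612 (10.1%) lower, and against the kidney 669 of 16079 (4.16%) were higher and 1056 (6.57%) lower. The spleen was the tissue with the fewest calls, 516 of 15563 genes (3.32%) higher and 381 (2.45%) lower in lung. Without scaling between libraries the split turned towards lung, to 3229 higher and 561 lower against the heart, 4254 and 553 against the liver and 1264 and 839 against the kidney, with the median gene then 1.17, 1.28 and 0.43 higher in lung on the log2 scale (0.06, 0.02 and -0.03 with scaling). Quantile normalization gave 1086 higher and 1098 lower against the liver. The depth of the lung libraries, read back from the steps of the FPKM values, was 13149541 to 16215775 reads on genes.

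**Figure D1:**
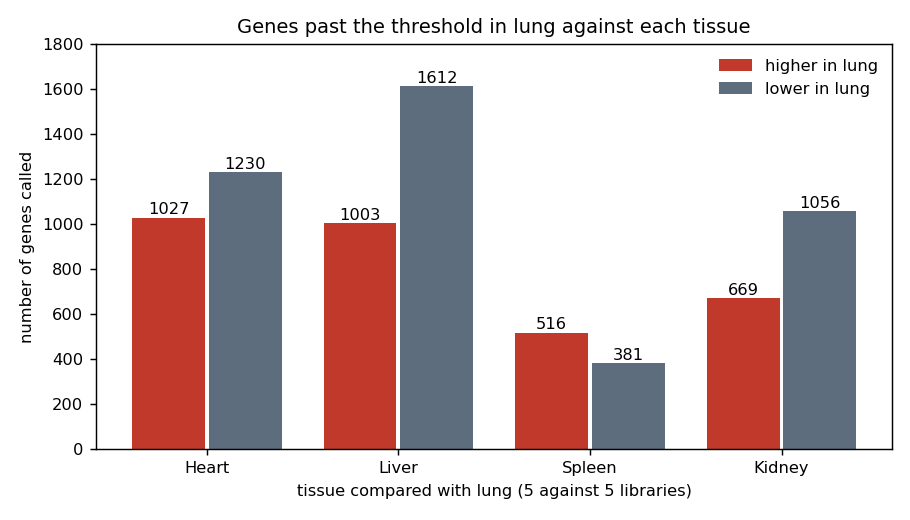
Number of genes called higher (red) or lower (grey) in the 5 lung libraries than in the 5 libraries of each other tissue. The counts against the spleen, 516 and 381, are the smallest of the 4 comparisons.

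In all, 124 of the 14602 genes tested against every tissue (0.849%) were higher in lung than in each of the 4 others, and 102 of these had all 5 lung libraries above all 20 others. Over all 14602 genes, called or not, 335 had every lung library above all 20 others and 101 had every lung library below. On the deposited FPKM, without scaling, these numbers were 715 and 9. The 4 comparisons share the lung libraries. The tissue nearest to lung was the kidney for 49 of the 124 genes, the spleen for 39, the heart for 22 and the liver for 14. A further 132 genes were higher in lung than in the heart, liver and kidney but not called against the spleen. By contrast, 1 gene (0.00685%) was lower in lung than in each other tissue. Of the 124 genes, 86 had a symbol. Symbols came from a list of genes that the study had selected as tissue-specific on these same libraries, so the counts over named genes are not independent evidence of their direction: 21.7% of the named genes tested against the heart were higher in lung, compared with 6.5% of all genes, and 8.87% of named genes were higher than in each other tissue.

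The genes of the surfactant system set the lung apart most strongly. SFTPC, which encodes surfactant protein C, stood at 25227, 7360, 6648, 10609 and 21418 in the lungs of pandas 1 to 5, against at most 63.9 in any other library. It was the first or second most abundant gene of every lung library per length and made up as much as 4.4% of the summed FPKM, in panda 1. The log2 difference was 11.66 ± 0.73 (SE, n = 5 libraries per tissue) from the heart, 11.74 ± 0.71 from the liver, 11.53 ± 0.97 from the spleen and 11.98 ± 0.49 from the kidney, with limma adjusted p of at most 3.97e-06. SFTPB, the surfactant protein B gene, stood at 3592, 1535, 785, 1962 and 2856 and was at most 12.4 elsewhere. Its smallest log2 difference was 9.84, from the spleen (adjusted p = 6.69e-07). For both genes the lung and the other libraries did not overlap, and the libraries of pandas 1 and 5 were the highest.

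All 10 measured genes of a 16-gene list of surfactant and type 2 cell genes were higher in lung than in each other tissue, and 9 of the 10 had no overlap. A gene was measured here only if it had a symbol, and so was on the study's list of tissue-specific genes. Counts in this and the other lists are therefore partly set by that selection. Of all named genes tested, 8.87% were higher in lung than in each other tissue. The median log2 difference of the list was 7.47 from the heart, 7.44 from the liver, 5.80 from the spleen and 5.95 from the kidney, beside medians over all tested genes of 0.06, 0.02, -0.07 and -0.03. SFTPD, the collectin surfactant protein D, stood at 203, 159, 45.5, 188 and 209 in the 5 lungs, with a smallest log2 difference of 6.57. SLC34A2, the sodium-phosphate transporter of type 2 cells, stood at 581, 227, 84.5, 316 and 496, with a smallest difference of 6.42. In both, the lung of panda 3 was the lowest. LAMP3, a protein of the lamellar body membrane in which surfactant is stored, ranged from 154 to 419 in lung and differed least from the spleen, by 4.73. CXCL17, a chemokine of mucosal surfaces, ranged from 785 to 1583 in lung and at most 47.2 elsewhere, where the kidney was the nearest tissue with a difference of 5.49. The smallest differences within the list were those of ABCA3, the lipid transporter that loads the lamellar body (2.24, from the kidney), and of the kinase gene LRRK2 (2.15, from the spleen). The aspartic protease NAPSA, which processes surfactant protein B, was the 1 member that overlapped: it ranged from 128 to 611 in lung and reached 133 in a kidney library.

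**Figure D2:**
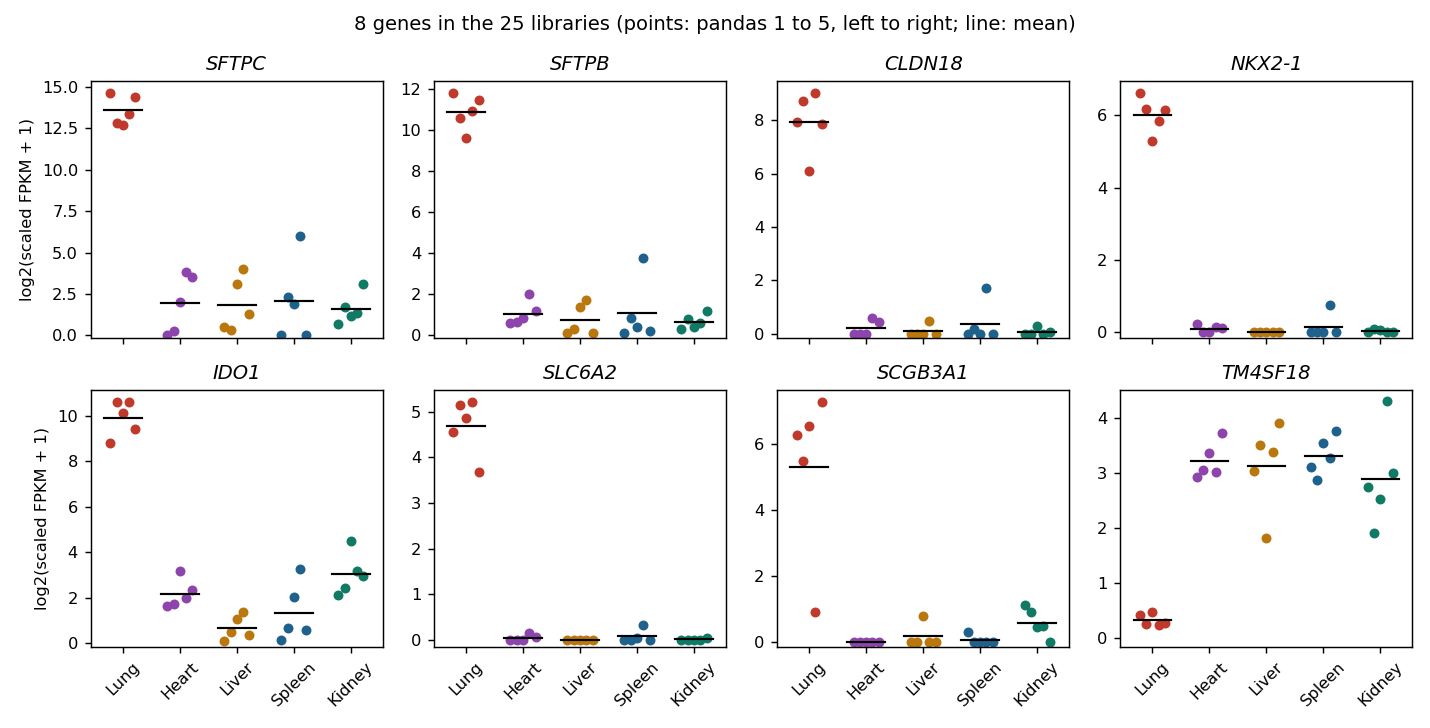
Scaled FPKM on a log2 scale in each of the 25 libraries for 8 genes, with points ordered from panda 1 to panda 5 within a tissue and a line at the mean. In 6 genes all lung libraries lie above the 20 others, SCGB3A1 is at 0.871 in the lung of panda 4 alone, and TM4SF18 is lower in every lung library than in any other.

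The 6 measured genes of a 15-gene list of type 1 cells were likewise all higher in lung than in each other tissue, with no overlap in any. The same limit on measured genes holds for this list. CLDN18, a tight junction claudin with a lung isoform, stood at 247, 420, 66.9, 520 and 230 in the 5 lungs and was at most 2.28 elsewhere. Its smallest log2 difference was 7.55 ± 0.52 (SE), from the spleen (adjusted p = 8.08e-07). AGER, the receptor for advanced glycation end products, stood at 840, 491, 434, 600 and 626, and differed least from the spleen, by 5.52 ± 0.22 (adjusted p = 2.03e-08). HOPX, a homeodomain protein without DNA binding, stood at 540, 985, 369, 870 and 637, with 29.8 ± 12.5 (SD, n = 5) in the spleen. The other 3 were GPRC5A, RTKN2 and the water channel AQP4, with smallest differences of 4.16, 3.78 and 3.43. The 3 markers SFTPC, SFTPB and CLDN18 thus had their highest values in the libraries labelled lung, with no exception among the 25.

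Outside the type 1 and type 2 lists, IDO1 was the symbol-named gene with the largest smallest difference. It encodes indoleamine 2,3-dioxygenase, which starts the breakdown of tryptophan. Its level was 441, 1523, 1109, 1557 and 688 in the lungs of pandas 1 to 5 and at most 21.4, in a kidney. The log2 difference was 7.73 ± 0.39 (SE) from the heart, 9.23 ± 0.41 from the liver, 8.57 ± 0.57 from the spleen and 6.88 ± 0.47 from the kidney (adjusted p of at most 6.55e-07). The lungs of pandas 2 and 4 were the highest and that of panda 1 the lowest, and no lung library overlapped any other. METTL7A, a methyltransferase-like gene, was the most even of these genes at 306, 436, 385, 341 and 333, with a smallest difference of 4.84 from the kidney. SLC22A31, of the organic ion transporter family, ranged from 91.4 to 295, and GFRA3, the artemin co-receptor, from 30.7 to 124, with smallest differences of 5.26 and 4.39.

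TM4SF18, a member of the transmembrane 4 L6 family, was the only gene lower in lung than in each other tissue. It stood at 0.34, 0.191, 0.395, 0.176 and 0.209 in the 5 lungs, from 4 to 10 reads in each. The heart had a mean of 8.46, the liver 8.67, the spleen 9.12 and the kidney 7.77, and no lung library reached the lowest of the others. The log2 difference ran from -2.56 (kidney, adjusted p = 1.51e-04) to -2.97 (spleen, adjusted p = 3.93e-07). Without the lung library of panda 1 or of panda 5 there were 4 such genes rather than 1, without the heart of panda 3, the liver of panda 1 or 3 or the spleen of panda 1 or 4 there were 2, and without scaling or in pandas 1 and 2 alone there were 0. With a pseudocount of 0.1, which weighs low genes more, or by limma-voom on recovered reads there were 8. Quantile normalization or panda as a block gave 2.

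Airway genes were higher in lung too, but 1 library was far from the rest. In a 21-gene list of club and secretory cells, 10 were measured and 6 were higher than in each other tissue, beside 8.87% of named genes. In pandas 3 to 5 alone 2 were. There SCGB3A1, MUC15 and AGR2 kept smallest differences of 4.61, 3.06 and 2.9 and missed only the adjusted p, with 3 libraries per tissue. KRT7, a keratin of simple epithelia, ranged from 75.6 to 241 and MUC15, a membrane mucin, from 17.1 to 88.5, and both were nearest to the kidney (2.58 and 2.76). SCGB3A1, a secretoglobin secreted in the airways, stood at 76.3, 44, 91.9, 0.871 and 155, with a mean of 0.55 in the kidney and less elsewhere. The lung of panda 4 was therefore within the range of the kidney libraries, whose highest was 1.15. The smallest log2 difference of SCGB3A1 was 4.72 ± 0.94 (SE), from the kidney (adjusted p = 0.00176). TSPAN1, a tetraspanin, and SLC44A4, a choline transporter-like protein, went against the list in 1 comparison, being lower in lung than in the kidney by 2.78 and 2.3 (adjusted p = 0.00457 and 0.0176). TFF1, a trefoil peptide, was listed at 0 in all 20 other libraries and at 0.157 to 3.79 in lung, and was not called.

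Among lists with more than 1 gene expressed in lung, the cilia genes had the widest range of medians between lungs. Of a 28-gene list, 18 were measured and 17 tested, and 9, 11, 7 and 6 were higher in lung than in the heart, liver, spleen and kidney, with none lower. Among all named genes tested, 21.7%, 17.2%, 15.7% and 11% were higher. The median log2 difference of the tested members was 2.04, 2.20, 1.78 and 1.70 in the same order. FOXJ1, the master regulator of motile cilia, stood at 38, 64.7, 59, 0.863 and 11.8 in the lungs of pandas 1 to 5. It was not called against the kidney, where its mean was 26 ± 21.2 (SD, n = 5). SNTN, a protein of the ciliary tip, stood at 5.31, 8.17, 28.6, 0.203 and 8.12 and was listed at 0 in all 20 other libraries. RSPH1, a radial spoke protein, stood at 13, 28.6, 35.4, 1.41 and 11.8. In all 17 cilia genes with a mean above 1 in lung, the library of panda 4 was the lowest of the 5, and in 15 the library of panda 3 was the highest. The summed level of the list was 130, 191, 289, 10.7 and 103, against at most 10.8 in any heart, liver or spleen and 72.9 in the kidney. The lung of panda 4 thus fell within the range of the liver, at the same time as its summed type 2 and type 1 genes, 15593 and 2170, lay inside the range of the other lungs or above it. The cilia genes SNTN, RSPH1, PIFO, TMEM212 and CFAP161, 5 in all, were higher than in each other tissue, against 9 without the lung of panda 4, 3 without that of panda 3 (PIFO then at 1.88) and 0 in pandas 3 to 5 alone. In that subset SNTN, RSPH1, PIFO and TMEM212 kept smallest differences of 2.78, 2.39, 2.39 and 2.33. They missed only the adjusted p, with 3 libraries per tissue. In bulk tissue, fewer cells of a type and less RNA per cell cannot be told apart, and how much of the airway each piece of lung held was not tested.

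**Figure D3:**
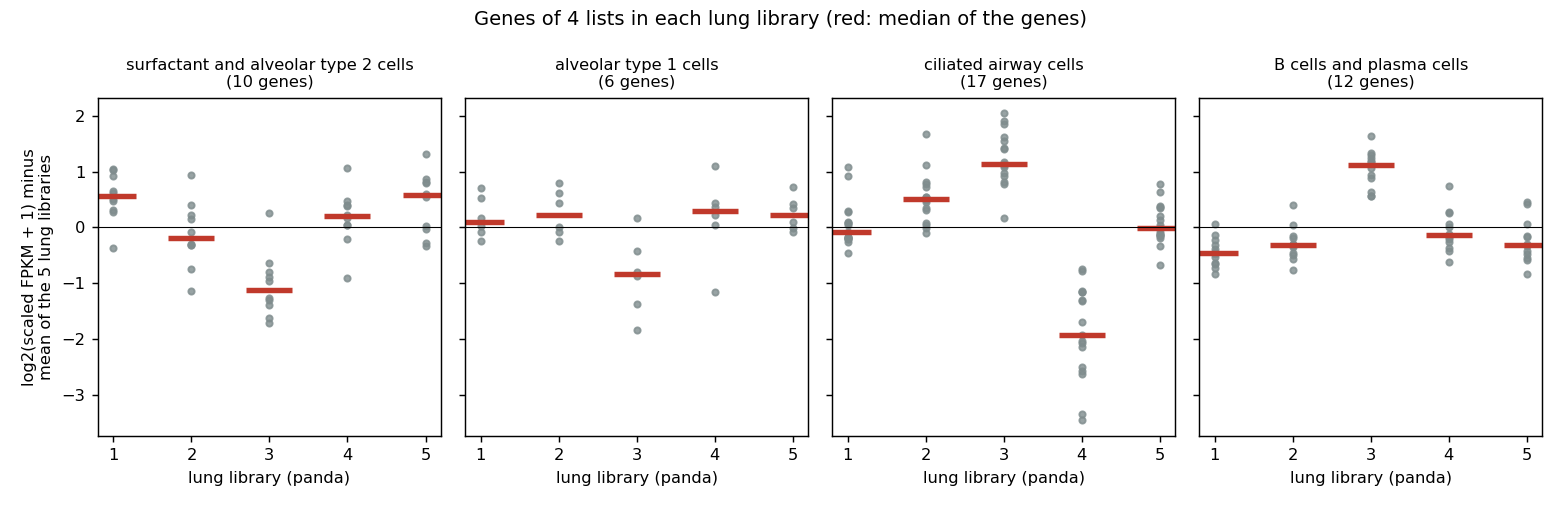
Difference of each gene from its mean over the 5 lung libraries, on the log2 scale, for genes of 4 lists with a mean above 1 in lung. Red marks are medians: the cilia genes reach -1.92 in panda 4, and in panda 3 the type 2 genes are at -1.12 and the B cell genes at 1.11.

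Among 6 measured lung transcription factors of an 18-gene list, 3 were higher than in each other tissue, beside 8.87% of named genes. NKX2-1, which directs lung and thyroid fate, stood at 97, 71.3, 37.8, 56.2 and 70.3 and did not exceed 0.68 elsewhere. Its log2 difference lay between 5.86 and 6.01 in the 4 comparisons (adjusted p of at most 3.52e-08). FOXF1, a forkhead factor of lung mesenchyme and endothelium, stood at 73.8, 160, 47.8, 178 and 32.7, highest in pandas 2 and 4, and its smallest difference was 4.18, from the liver. TBX4, a T-box factor of lung mesenchyme, was at 8.37 to 27 in lung and at most 0.141 elsewhere. The mesodermal factor OSR1 was higher than in 3 tissues but not called against the kidney (1.60), where it passed the threshold without scaling (2.14), with a pseudocount of 0.1 (2.17) and by limma-voom on recovered reads (2.38). SOX2, a factor of the airway epithelium, was called in no comparison at 5.35, 1.68, 3.2, 0.0937 and 2.12, and again panda 4 was the lowest. GATA6, a factor shared by lung, heart and gut, was higher in lung than in the kidney by 2.37 and lower than in the heart, where it averaged 113 against 10.9 to 42.3 in lung (difference -2.12, adjusted p = 3.41e-04).

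Of a 17-gene list of lung morphogens and their receptors 11 were measured. FGF10 and FGFR2 were among those higher than in each other tissue, as were 8.87% of named genes. FGF10, the branching signal made by lung mesenchyme, was even at 9.45, 12, 8.24, 10.8 and 8.04. Its receptor FGFR2 stood at 72.8, 83.1, 29, 79.6 and 64.2, with panda 3 standing apart. Both were nearest to the kidney, with differences of 2.73 ± 0.26 (SE) and 2.74 ± 0.37 (adjusted p = 8.03e-06 and 1.07e-04). HHIP, which binds and restrains hedgehog ligands, was higher than in the heart, spleen and kidney but not called against the liver (0.65, mean 20.6 ± 13 SD). The growth factor FGF7 was called only against the liver and ranged from 1.59 to 32.4 between lungs, high in pandas 1 and 5. BMP3, with the same high pair (11.1 and 10.5, the others at most 2.69), was called only against the liver, and leaving out the lung of panda 2, 3 or 4 brought its smallest difference to between 2.01 and 2.20, past the threshold everywhere. The same held without scaling (2.34), with a pseudocount of 0.1 (3.6) and by limma-voom (4.23).

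The amine transporters were the clearest of the vascular genes. SLC6A2, the noradrenaline transporter, stood at 22.6, 34.8, 28.2, 36.4 and 11.8 in lung and did not exceed 0.254 in any other tissue (smallest difference 4.63, adjusted p of at most 2.83e-07). SLC6A4, the serotonin transporter, stood at 42.7, 15.5, 17.1, 21.9 and 31 and did not exceed 2.44 (smallest difference 3.67). ACE, which makes angiotensin II on the capillary wall, was similar in all lungs at 55.5 to 76.8. It was higher than in the heart and liver by 4.93 and 5.71 but was not called against the spleen (1.76) or the kidney (0.65), whose mean was 43 ± 17.4 (SD). DDAH1, which breaks down inhibitors of nitric oxide synthesis, went the other way and was lower in lung than in the heart, liver and kidney by 3.64, 3.96 and 2.78. VIPR1, a receptor for vasoactive intestinal peptide, stayed at 0.0827 or less in lung and was lower than in the liver, while its relative VIPR2 ranged from 4.32 to 14 and was higher than in the heart, liver and kidney. Of 22 genes on this list 7 were measured, and both amine transporters, but no other member, were higher than in each other tissue. The share of named genes was 8.87%.

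Endothelial genes were less distinct. Of 25 on the list 7 were measured, and 3, 5, 2 and 4 were higher in lung than in the heart, liver, spleen and kidney, with 1 lower than in the spleen and 2 lower than in the kidney. Among all named genes tested, 21.7%, 17.2%, 15.7% and 11% were higher in the same order. The shares lower than in the spleen and kidney were 13.6% and 25.9%. CD93, a surface lectin of endothelium and myeloid cells, stood at 316, 113, 80.3, 119 and 173 and was higher than in each tissue, by 2.23 from the spleen, although without the lung of panda 1 the smallest difference was 1.94. APLNR, the apelin receptor of general capillaries, stood at 35.5, 61.6, 19.8, 69.2 and 17.4 and was higher than in each tissue, by 2.16 from the spleen. Without the lung of panda 2, the lung of panda 4 or the spleen of panda 4 its smallest difference was 1.97, 1.92 or 1.91. PRX, a periaxin of lung capillaries, was called against the liver and kidney only, and with a pseudocount of 0.1 against each tissue (2.02). CA4, the carbonic anhydrase of the capillary surface, was at 11.3 to 26.2 in lung and lower than in the kidney by 3.37. CD300LG, an endothelial mucin receptor, was at most 0.131 in lung and below every library of the other tissues.

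**Figure D4:**
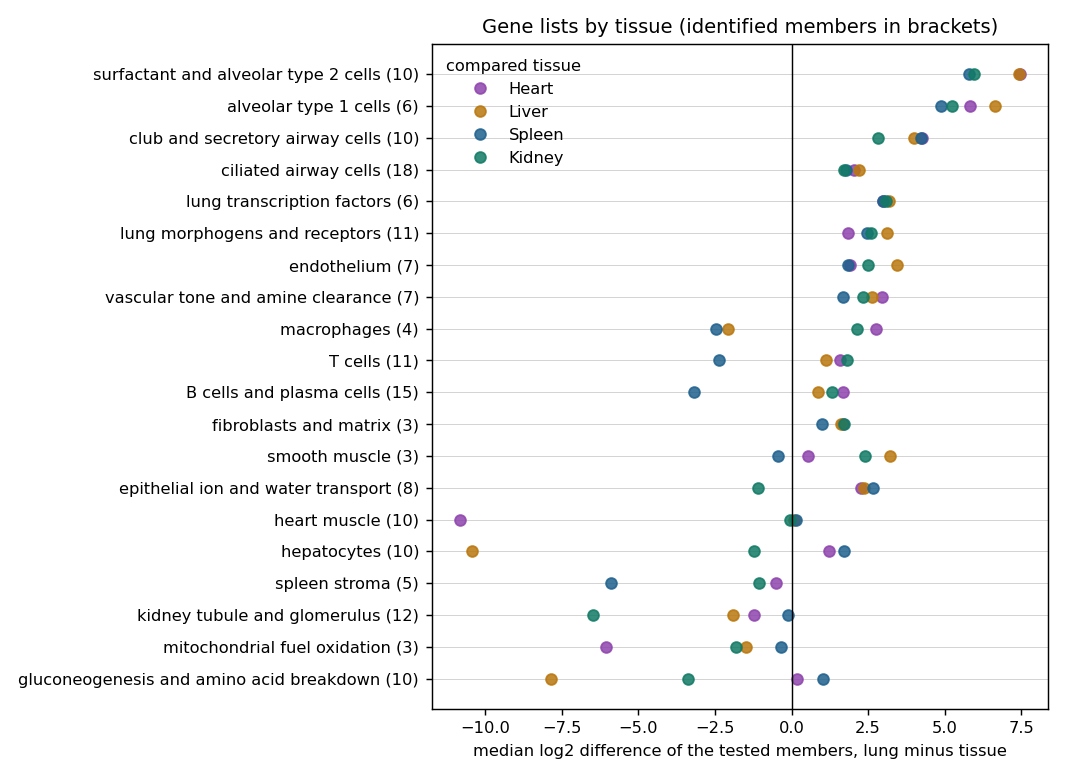
Median log2 difference, lung minus each tissue, of the tested members of the gene lists with at least 3 identified members. The type 2 and type 1 lists lie furthest to the right, between 4.89 and 7.47, and the heart muscle and hepatocyte lists furthest to the left, at -10.83 and -10.44.

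Most lymphocyte genes were lower in lung than in the spleen, and few were called against the other tissues. Of 11 measured T cell genes (of 16), 8 were lower in lung than in the spleen and none higher, with 4 higher than in the heart and the kidney (CD3D, CD3E, CD3G and CD7) and 1, CD7, higher than in the liver. Among all named genes tested, 21.7%, 17.2% and 11% were higher in lung than in the heart, liver and kidney, and 13.6% were lower than in the spleen. CD3E, a chain of the T cell receptor complex, stood at 8.12, 17.5, 11.7, 16.4 and 6.39 in lung, 147 ± 119 (SD, n = 5) in the spleen and 1.29 to 2.53 on average in the other tissues. CD7, a surface protein of T and natural killer cells, was the exception. It stood at 36.3, 89.4, 49.1, 127 and 32.8 against 15.1 ± 5.36 in the spleen, with no overlap, and was higher than in the heart, liver and kidney. Its difference from the spleen, 1.95 ± 0.38 (SE, adjusted p = 0.00235), missed the threshold of 2 and passed it, at 2.01 to 2.15, without the lung of panda 1, 3 or 5 or the spleen of panda 1, 3 or 5. It also passed without scaling (2.0), with quantile normalization (2.01), with a pseudocount of 0.1 (2.02) and by limma-voom (2.03).

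Of 15 measured B and plasma cell genes (of 16), 12 were lower in lung than in the spleen, with a median log2 difference of -3.18 against -0.07 over all genes. Of the 12 tested against the heart, liver and kidney, 3, 2 and 3 were higher in lung and the other 9, 10 and 9 were not called. Among all named genes tested, 21.7%, 17.2% and 11% were higher than in these tissues, and 13.6% were lower than in the spleen. JCHAIN, which joins secreted IgA and IgM, stood at 126, 115, 465, 162 and 261 in lung and 1383 ± 868 in the spleen (difference -2.56 ± 0.50, adjusted p = 0.00233). It was higher than in the heart, liver and kidney, by 4.99, 3.18 and 3.06, as was IGHM, the heavy chain of IgM, and CD79A, a chain of the B cell receptor complex, was the third gene called against the heart and kidney. In all 12 members with a mean above 1 in lung the library of panda 3 was the highest, and the summed level of the list was 809 in panda 3 and 246 to 387 in the others. FCMR, the receptor for IgM, was at 8.32 in panda 3 and at 1.48 to 2.4 in the others.

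Of a 20-gene macrophage list 4 were measured, and they differed by gene. All 3 tested against the heart were higher in lung, and against the kidney 2 of 3 were higher and 1 lower. Against the liver 0 were higher and 2 lower, and against the spleen 1 was higher and 3 were lower. The shares of named genes higher were 21.7% (heart), 11% (kidney), 17.2% (liver) and 15.7% (spleen). The shares lower than in the kidney, liver and spleen were 25.9%, 27.9% and 13.6%. CLEC10A, a galactose-binding lectin, was higher in lung than in the heart, spleen and kidney by 2.76, 2.22 and 2.67 and lower than in the liver by 2.55. ACP5, the tartrate-resistant phosphatase, was lower than in the liver, spleen and kidney. SIGLEC1, a sialic acid receptor, and SPIC, a factor of red pulp macrophages, were lower than in the spleen by 2.14 and 4.58. FPR2, a formyl peptide receptor and the only measured gene of 12 on the neutrophil list, was higher than in each tissue at 55.8, 16.2, 12.8, 24.5 and 59.6, although a spleen library reached 17.9 (smallest difference 3.39, adjusted p = 0.00781). None of the 17 interferon-response genes on a further list had an identifier with a symbol, and they were not analysed here.

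Among stromal genes, 3 of a 10-gene smooth muscle list were measured. PRDM6, a smooth muscle repressor, was even between lungs (4.46 to 6.26) and higher than in each tissue. MYH11 and DES of contractile muscle were higher than in the liver and were not called against the spleen. Of the 3 genes, 1 was lower than in the heart, and 2, PRDM6 included, were higher than in the kidney. Their summed level was 54.5 to 149 in the lungs and 6006 to 33390 in the hearts. Of a 16-gene fibroblast and matrix list 3 were measured. LUM, the proteoglycan lumican, was lower than in the heart by 3.14, and FN1, fibronectin, lower than in the liver by 2.45. In the other direction, 1 member was higher than in the liver and 1 higher than in the kidney, beside 17.2% and 11% of named genes. The median log2 differences of the list were positive, at 1.68, 1.62, 0.99 and 1.70 from the heart, liver, spleen and kidney. UPK1B, a uroplakin of mesothelium, stood at 19.9, 1.73, 13.6, 1.3 and 22.9. It was just past the threshold against the spleen (2.08 ± 0.70, adjusted p = 0.0413) and was lost with panda as a block, without the heart library of panda 4, without any of 4 spleen libraries (pandas 1, 2, 3 and 5) and without the lung of panda 1, 3 or 5 (1.71 to 2.11). CFTR, the chloride channel of airway and alveolar epithelium, was at 2.34 to 7.31 and higher than in the heart, spleen and kidney, and at 1.88 from the liver it missed the threshold, which it passed without the liver of panda 5 or the lung of panda 3, and also without scaling (2.71), with a pseudocount of 0.1 (3.17) and by limma-voom on recovered reads (3.32). AQP1, the water channel of capillaries, was higher than in the liver and spleen and lower than in the kidney by 2.99. Of the 8 measured ion and water transport genes (of 15), 4 with AQP1 were lower than in the kidney and 3 were higher. The shares of named genes were 25.9% and 11%. Of 6 tested against the heart, liver and spleen, 4, 3 and 4 were higher and 0 lower, beside 21.7%, 17.2% and 15.7% of named genes higher.

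Genes that mark the other tissues were low in lung. All 10 heart muscle genes were lower than in the heart, with a median log2 difference of -10.83, and all 10 measured hepatocyte genes were lower than in the liver, with a median of -10.44. All 12 kidney genes were lower than in the kidney (median -6.49) and all 5 measured spleen stroma genes lower than in the spleen (median -5.88). The measured genes came from the study's tissue-specific list, so these counts largely repeat that selection. Of all named genes tested, 33.6%, 27.9%, 25.9% and 13.6% were lower in lung than in the heart, liver, kidney and spleen. Over all genes the shares were 7.79%, 10.1%, 6.57% and 2.45%. MYL2 and TNNC1, a myosin light chain and a troponin of heart muscle, differed from the heart by -13.57 and -13.38. APOC2 and AHSG, an apolipoprotein and a plasma glycoprotein, differed from the liver by -12.80 and -12.74. FXYD2, a sodium pump subunit of the renal tubule, differed from the kidney by -10.96. CXCL13, the chemokine of B cell follicles, and NKX2-3, a factor of spleen development, gave 0 reads in all 5 lung libraries, which allows up to 3 reads in each. COX7A1, a subunit of cytochrome oxidase in oxidative muscle, was lower in lung than in the heart, liver and kidney by 6.14, 3.02 and 3.85. In the list of gluconeogenesis and amino acid breakdown, 9 of 10 measured genes were lower than in the liver and 5 lower than in the kidney. FBP1, a key enzyme of glucose synthesis, was lower than in both (-7.06 and -4.58) and higher than in the heart, by 2.50. Both measured genes of the red cell and platelet list, SLC4A1 and EPOR, were lower than in the kidney by 3.81 and 2.16, and EPOR was lost without the lung of panda 3 or the kidney of panda 1 (-1.93 and -1.88) and without scaling (-1.94).

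Traces of heart genes differed between pandas. MYL2 stood at 0.19 and 0.0802 in the lungs of pandas 1 and 2 and at 6.1, 7.44 and 8.7 in those of pandas 3 to 5, with no overlap. TNNC1 stood at 0.314 and 0.199 in the first pair and at 4.28 to 5.03 in the others. Neither gene was called different between lung and the liver, spleen or kidney, where the means were 3.67 to 7.63 for MYL2. The same split was seen in those tissues, so it was not particular to lung. In pandas 1 to 5 MYL2 stood at 0, 0.133, 21.7, 15.3 and 1.05 in the liver. It stood at 0, 0.571, 8.85, 6.64 and 2.27 in the spleen and 0.0854, 0.205, 4.38, 4.92 and 13 in the kidney. The fibrinogen genes FGA, FGB and FGG were listed at 0 in the lungs of pandas 1 and 2 and at 0.163 to 1.16 in those of pandas 3 to 5.

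The lungs of pandas 3 to 5 were compared with those of pandas 1 and 2 over 14896 tested genes, and 0 (0%) were called by limma in either direction, with 205 at an unadjusted p under 0.05. The same split, taken on the difference between the lung and the mean of the 4 other tissues in each panda, also gave 0 calls (0%), with 91 at an unadjusted p under 0.05. With 3 libraries against 2, 0 calls do not show that the lungs were alike: MYL2, with no overlap, had an adjusted p of 0.478. Over the 124 genes higher than in each other tissue, deviations from the lung mean correlated at r = 0.62 between pandas 1 and 5 and at 0.29 between pandas 2 and 4, and at -0.81 between pandas 2 and 5 and -0.72 between pandas 3 and 4. These values are over genes within libraries, which are not independent, and 5 deviations that sum to 0 correlate negatively on average. Panda 3 was the lowest of the 5 in 44 of the 124 genes and in 9 of the 10 type 2 genes.

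Lung genes were also traced in other tissues. Of the 15 symbol-named genes with the largest smallest difference among those with no overlap between lung and the other libraries, 11 were higher in the spleen of panda 4 than in any other spleen. SFTPC stood there at 63.9, from 882 reads, with 0 to 4.02 in the other spleens. SFTPB stood at 12.4, from 326 reads, with 0.0739 to 0.748 in the others, and CXCL17 at 10 with 0 to 0.965. As a percentage of the lung of the same panda these 11 genes lay at 0.44 to 1.2%, with a median of 0.63%. This range covers only the genes picked for being highest in that spleen. How often that spleen was the highest over all genes was not counted. The ratio of SFTPC to SFTPB was 5.15 in that spleen and 5.41 in that lung. AGER, LAMP3, HOPX and GFRA3, which every spleen expressed, were not the highest in it and stood at 2.2, 1.8, 2.8 and 2% of the lung level. SCGB3A1, left out of the 15 for its overlap, was at 0 in that spleen. Without the spleen of panda 4, 127 genes were higher in lung than in each other tissue, and 122 of these were among the 124. SFTPC was not confined to the spleen of panda 4. Its heart levels from panda 1 to panda 5 were 0, 0.215, 3.06, 13.3 and 10.3. Liver levels, ordered likewise, were 0.405, 0.272, 7.42, 15.2 and 1.49. Kidney levels were 0.613, 2.31, 1.21, 1.6 and 7.6. The source of the lung transcripts was not tested for any of these libraries.

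**Figure D5:**
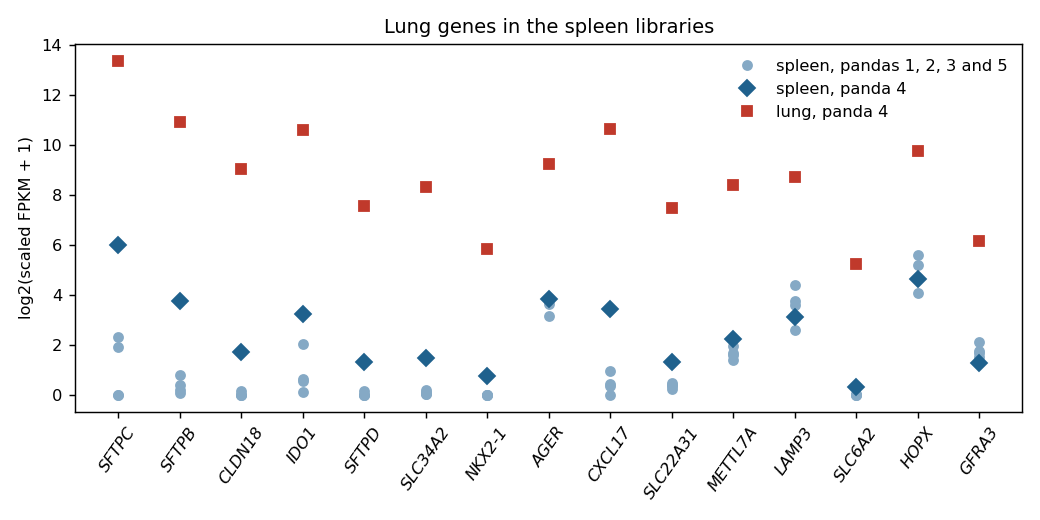
Scaled FPKM on a log2 scale of the 15 named genes with the largest smallest difference and no overlap, in the spleen libraries (circles, and a diamond for panda 4) and in the lung of panda 4 (squares). The spleen of panda 4 lies above the other spleens in 11 genes, at 0.44 to 1.2% of the lung level. AGER, LAMP3, HOPX and GFRA3 are at 1.8 to 2.8%.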

How the data were processed

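Polyadenylated RNA of 25 samples was sequenced as paired-end reads. The authors aligned reads to the genome build ailMel1 with HISAT2 2.0.4, assembled further genes with Cufflinks 2.1.1, counted with HTSeq 0.9.1 and deposited FPKM for 25376 genes, with no scaling between libraries. Deposited FPKM were here divided by median-of-ratios size factors (0.2097 to 1.819; lung 1.542 to 1.819), and lung was compared with each tissue by limma 3.58.1 (R 4.3.3) with a variance trend on log2(scaled FPKM + 1), over genes with a mean above 1 in either tissue. The log2 scale understates the change of low genes. Whole reads were recovered for 24207 of 24207 genes above 0, within 0.05 reads. Columns left out numbered 0.

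Libraries with the same number come from the same panda. Their deviations from the tissue means correlated between lung and other tissues at 0.174 to 0.571 in 20 of 20 pairs. Between different pandas the median was -0.18 and the range -0.52 to 0.408, with 20 of 80 pairs above 0.1. Deviations within a tissue sum to 0, which favours negative values between different pandas. Panda was a block in an alternative fit. Other alternatives were no scaling, quantile normalization, trimmed-mean factors, a pseudocount of 0.1, other filters, limma-voom on recovered reads, subsets of pandas and leaving out each library, and counts of list members under these were added after seeing the data.

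Gene lists and the rule for named genes were chosen with earlier results of these data known: markers of lung, up to 4 members per list by the smallest of the 4 differences with any that went against their list, the 15 symbol-named genes most raised and the 10 most lowered throughout with no overlap between lung and other libraries, and the 5 most raised and lowered per comparison. Symbols were paired for 1778 identifiers by the study's list of tissue-specific genes, 15 of them unreadable and left out, and 74 were locus numbers, of which 13 had a symbol in RefSeq. Coordinates and sequences were not used here, and 1 item of the morphogen list is not reported here. In simulated reads with 200 genes changed 8-fold, 164 to 172 were called per comparison, 0 with the wrong sign, and at most 1 unchanged gene was called. Those reads were drawn around the lung means for every tissue, with the same dispersion for all genes and no effect of animal. Only genes with many reads were changed, so the rates need not hold for the real libraries.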

Additional observations from a re-analysis of the deposited data

Results flagged for a closer look

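In 6 of 77 named genes expressed in lung, 1 of the 5 lung libraries stood apart from the others on the log2 scale by Dixon's ratio (critical value 0.71, which chance passes in about 1 of 20 groups). In the lung of panda 3, 4 genes were low: SFTPD at 45.5 with 159 to 209 in the other lungs, GPRC5A, a receptor of the alveolar epithelium, at 36.1 with 107 to 129, FGFR2 at 29 with 64.2 to 83.1, and the peptide hormone gene CCK at 0.574 with 1.42 to 1.66. In the same library FCMR was high, at 8.32 with 1.48 to 2.4. In the lung of panda 4, SCGB3A1 was at 0.871 with 44 to 155 in the others. All values are scaled FPKM.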

How the results depend on the processing

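The direction of every named gene past the threshold was kept under all alternatives, and 96 of 115 gene results had no changed call. A smaller pseudocount of 0.1, which weighs low genes more, gave 2120 genes higher in lung against the heart, 2370 against the liver, 1145 against the spleen and 1416 against the kidney, with 834 and 1661 lower against the spleen and kidney, and 332 higher and 8 lower than in each tissue. limma-voom on the recovered reads gave 2053 higher and 1933 lower against the heart, 2231 and 2419 against the liver, 1151 and 840 against the spleen, 1493 and 1695 against the kidney, and 313 and 8 against each. Without scaling, 3229 were higher and 561 lower against the heart, 4254 and 553 against the liver, 1264 higher against the kidney, and 262 higher and 0 lower than in each tissue, the 262 holding all 124. The genes lower than in each tissue were 2 with quantile normalization, 0 in pandas 1 and 2 alone and 1 to 4 with a library left out. Quantile normalization, TMM factors and filters otherwise changed no count by over 1.5 times, and pandas 3 to 5 gave 90 genes higher than in each tissue. With 1 library left out the counts higher and lower were 947 to 1093 and 1182 to 1261 (heart), 930 to 1097 and 1365 to 1801 (liver), 501 to 555 and 349 to 423 (spleen), 614 to 799 and 966 to 1205 (kidney), and 119 to 143 were higher than in each. With panda as a replicate block, 125 genes were higher and 2 lower than in each tissue, and the call of UPK1B was the only named one that changed.

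In pandas 3 to 5 alone, SCGB3A1 (4.61), AGR2 (2.9), MUC15 (3.06), SNTN (2.78), RSPH1 (2.39), TMEM212 (2.33), PIFO (2.39), APLNR (2.26), FPR2 (3.3), UPK1B (2.06) and EPOR (-2.08, from the kidney) were not called. All kept differences beyond 2 and missed only the adjusted p, with 3 libraries per tissue. In pandas 1 and 2 alone RSPH1 (3.03), CD93 (2.22), APLNR (2.02) and FPR2 (3.52) likewise missed only the adjusted p. UPK1B (1.61) was not called there either. ANGPT2, an angiopoietin, became higher than in each tissue without the lung of panda 5 (2.05), without scaling (2.02), with quantile normalization (2.03) and with a pseudocount of 0.1 (2.0). The cilia genes higher than in each tissue, 5 in the report, were 8 without scaling, 12 with a pseudocount of 0.1 and 9 by limma-voom. SCGB3A1 (6.4) and UPK1B (2.81) were not called by limma-voom. The comparison of pandas within the lung gave 0 calls under every alternative run. Low genes and genes without a symbol limit what was described.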
